A study of Mus musculus with 8 samples.

Results

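NF1-MET;sgP53 cells were compared with their parental line NF1-MET, both grown in vehicle (DMSO) for 24 h, to ask which transcripts differ once *Trp53* has been targeted while MET is not inhibited. The comparison used 4 of the 8 libraries of the series, 2 of each line, and 14484 genes, each with a count of 10 or more in 2 or more of the 8 libraries and detected in 2 or more of these 4. The other 4 libraries came from the same lines given 100 nM capmatinib, a MET kinase inhibitor, for 24 h. They were used here to give the difference between the lines for the same genes in libraries that the vehicle comparison did not use.

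NF1-MET is a cell line from a mouse malignant peripheral nerve sheath tumour (MPNST) with amplified *Met*, intact *Trp53* and, as the study describes it, a deletion at *Cdkn2a*. The animal was *Nf1* fl/ko and carried a lox-stop-loxMET transgene (tg/+) together with Plp-creERT (tg/+), an inducible Cre, so both lines share these alleles. The NF1-MET;sgP53 line was derived from it with a lentiviral CRISPR vector that carried a guide against *Trp53*, and transduced cells were selected with puromycin. Each genotype was 1 line, so other differences between the lines, passage and transduction included, cannot be told apart from the targeting of *Trp53*. The sample labels call the reference NF1-MET, while its columns in the count table begin with SEV, and the study also made an empty-vector line, so the reference may have been transduced. The labels call the 2 libraries of a group biological replicates and describe duplicate treatment in 6-well plates, but not separate derivations, so p-values measure the spread between such duplicates, which may be technical.

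p53, the protein of *Trp53*, is a transcription factor that is kept scarce by the ubiquitin ligase MDM2 and that accumulates after DNA damage or oncogene signalling. It binds response elements at target genes that halt the cell cycle, promote cell death, aid DNA repair or feed back on p53 itself, and *Cdkn1a*, which encodes the CDK inhibitor p21, is the best known of them. In tumours of the nerve sheath, loss of *Trp53* or of the *Cdkn2a* locus often accompanies loss of *Nf1*.

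The 4 vehicle libraries held 32943928 to 38842903 counts. *Gm42418*, a gene that overlaps ribosomal RNA, took 10.1% and 5.29% of the counts in the parental libraries, 7.89% and 3.16% in those of NF1-MET;sgP53, so its share differed as much between replicates as between the lines. Of 21 markers of immune, endothelial, epithelial, muscle, blood, liver and fat cells, 10 had no count in any of the 4 libraries, and the 21 together summed to 73 to 113 counts a library. Of the 3 past the filter, the epithelial keratin gene *Krt8* was called lower (16 and 23 counts in NF1-MET and 8 and 4 counts in NF1-MET;sgP53), and *Cd68* and *Vwf* were not called. The Schwann cell markers *Sox10* (at most 7 counts), *Mbp* (at most 8) and *S100b* (at most 21) were also close to absent in both lines. The neural crest and mesenchymal genes *Nes* (456 and 455 CPM in NF1-MET and 474 and 497 CPM in NF1-MET;sgP53), *Twist1* (47.0 and 49.3 CPM in NF1-MET and 43.6 and 43.2 CPM in NF1-MET;sgP53) and *Prrx1* (543 and 541 CPM in NF1-MET and 463 and 485 CPM in NF1-MET;sgP53) were present in every library, with log2 fold changes between the lines of 0.09, -0.15 and -0.19 that were small but called. What part these differences have in the results was not tested.

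*Trp53* (ENSMUSG00000059552, chromosome 11, 69580359 to 69591873 on mm10) was measured first. It had 6613 and 7700 counts in NF1-MET and 3351 and 4275 counts in NF1-MET;sgP53, or 194 and 206 CPM in NF1-MET and 102 and 105 CPM in NF1-MET;sgP53, where CPM (counts-per-million) are counts divided by the library's total and edgeR's TMM factor, fitted within the 4 libraries. Both NF1-MET;sgP53 libraries lay below both NF1-MET libraries (log2 fold change -0.94, SE 0.0327, adjusted p = 2.48e-14, edgeR's quasi-likelihood test, p adjusted after Benjamini and Hochberg across all 14484 genes). All fold changes are NF1-MET;sgP53 over NF1-MET on the log2 scale. The count is one of transcript and does not show which part of it carries a lesion. *Wrap53*, the head-to-head neighbour that shares no exon base with *Trp53* in GENCODE M21, stood at 11 and 11.7 CPM in NF1-MET and 13.1 and 12.3 CPM in NF1-MET;sgP53 and did not pass the test (log2 fold change 0.15, adjusted p = 0.192). Of 14 tested genes in the list of *Trp53* and its neighbours on chromosome 11, 3 were called, all lower, where 23.2% of all genes were called in either direction. Beside *Trp53* these were *Kdm6b* at -0.33 (adjusted p = 1.35e-05) and *Fxr2* at -0.17 (adjusted p = 0.000432). The call of *Fxr2* was lost with library totals in place of TMM factors.

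Over all genes, 3355 of 14484 were called at an adjusted p under 0.05 (23.2%), 1580 of them higher in NF1-MET;sgP53 (10.9%) and 1775 lower (12.3%). With library totals in place of TMM factors these numbers were 1280 and 743, and the median of all genes moved from 0.00 to 0.06. Most differences were small. Their median size was 0.24 on the log2 scale, 203 genes rose and 134 fell at least 2-fold, and 23 and 32 of these reached 10 CPM in the line with the higher level. The squared difference between the replicates of a line, as a median over genes, was 1.56 (NF1-MET) and 1.77 (NF1-MET;sgP53) times what sampling of counts alone would give. Small differences could thus pass the test.

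Genes that p53 is known to activate were lower in NF1-MET;sgP53 more often than higher. Of 59 tested members of the 5 lists of p53 targets, 26 were called lower and 5 higher, against 12.3% and 10.9% of all genes, and their median log2 fold change was -0.12 (all genes 0.00). With library totals 18 were lower and 5 higher. The capmatinib libraries gave 19 lower and 4 higher, where 6.34% and 5.94% of all genes were called (12.3% in either direction). Among the 14 genes of cell cycle arrest, 8 were lower and 2 higher, with a median of -0.10. *Cdkn1a* (ENSMUSG00000023067, chromosome 17, 29090976 to 29100727) stood at 98.9 and 92.9 CPM in NF1-MET and 31.0 and 28.5 CPM in NF1-MET;sgP53, so that both NF1-MET;sgP53 libraries lay far below both NF1-MET libraries (log2 fold change -1.69, SE 0.0439, adjusted p = 3.16e-16, edgeR's quasi-likelihood test). *Ccng1*, a cyclin that acts with the phosphatase PP2A, had 189 and 186 CPM in NF1-MET and 79.5 and 83.6 CPM in NF1-MET;sgP53 and a log2 fold change of -1.20 (adjusted p = 5.07e-16). *Zmat3*, an RNA-binding zinc finger protein, had 84.5 and 82.7 CPM in NF1-MET and 59.4 and 57.1 CPM in NF1-MET;sgP53 and -0.52 (adjusted p = 4.67e-10), and *Psrc1*, a microtubule-associated protein, 11.5 and 11.1 CPM in NF1-MET and 4.89 and 5.22 CPM in NF1-MET;sgP53 and -1.16 (adjusted p = 1.45e-08). In each of these 4 genes the lines did not overlap, as in 3352 of all 3355 genes called. Smaller differences were called for *Plk3* (-0.21), *Gtse1* (-0.11) and *Cav1* (-0.10), and all 3 calls were lost with library totals. The long noncoding RNA *Trp53cor1* (lincRNA-p21) was also called lower, on 9 to 31 counts a library and with 44.1% of its exon bases shared with other genes. The kinase gene *Plk2* went the other way, from 83.0 and 89.6 to 144 and 144 CPM (log2 fold change 0.74, SE 0.0354, adjusted p = 3.98e-12), as did *Ptpn14* (0.10), whose call was lost with library totals.

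The capitals below mark a pair of decamers upstream of a *Cdkn1a* start that each match the p53 consensus in full. Such pairs, up to 13 bases apart, were searched on both strands by name as p53 response elements. *Cdkn1a* is shown because it is the arrest gene with the largest fall past 10 CPM. The window is from RefSeq (GRCm38.p6), which gives 250 bases before and 50 after each gene's start.
Cdkn1a, chr17:29090881-29090962, plus strand: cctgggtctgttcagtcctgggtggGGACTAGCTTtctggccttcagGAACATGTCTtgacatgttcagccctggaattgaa
Of 32851 windows of this length, 24 (0.0731%) held such a pair, and of the 21 p53 targets called lower that had a window, 1 did, *Cdkn1a*. The bases right after the second decamer, tgacatgttc, depart from the consensus only at their first base and so were not marked. Which decamers form the element at *Cdkn1a* was not tested. A match of letters is not a measured binding site.

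Among 15 tested target genes of cell death, 7 were lower and 1 higher, against 12.3% and 10.9% of all genes (median -0.12). *Eda2r* (ENSMUSG00000034457, chromosome X, 97333840 to 97377216), a receptor of the TNF family, had the largest fall of any gene named by the size rule, from 18.6 and 18.5 to 4.43 and 4.88 CPM (log2 fold change -1.99, SE 0.0873, adjusted p = 1.11e-12, edgeR's quasi-likelihood test). *Trp53inp1*, a stress-induced nuclear protein, fell from 11.9 and 11.1 to 2.96 and 3.27 CPM (log2 fold change -1.87, SE 0.109, adjusted p = 7.97e-11), and *Ddit4l*, near the limit of detection at 1.5 and 1.34 CPM in NF1-MET and 0.611 and 0.320 CPM in NF1-MET;sgP53, had -1.64 (adjusted p = 0.000971). *Phlda3*, which restrains AKT, went from 62.2 and 63.1 to 46.0 and 44.7 CPM, a log2 fold change of -0.47 (adjusted p = 1.45e-08). *Pidd1* (-0.47), *Pmaip1* (-0.37), which encodes the BH3-only protein NOXA, and *Ei24* (-0.25) were lower by less. Other death genes that p53 activates in many settings did not pass the test, *Bbc3* (PUMA, -0.11, adjusted p = 0.479) and *Bax* (-0.12, adjusted p = 0.0502). *Apaf1*, the scaffold of the apoptosome, was higher (0.19, adjusted p = 0.000619). Levels thus went apart within this group, with folds from -1.99 to 0.19 among its called members.

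Of 5 tested genes that feed back on p53, 2 were lower, where 12.3% of all genes were, too few genes to read a share from. *Mdm2*, the ligase that p53 induces against itself, had 112 and 111 CPM in NF1-MET and 80.4 and 79.1 CPM in NF1-MET;sgP53 (log2 fold change -0.48, SE 0.0315, adjusted p = 4.22e-10), and *Mdm4* had -0.12 (adjusted p = 0.0136), a call lost with library totals. None of this group was higher. Of 7 DNA repair targets, also few, *Xpc* (-0.23) and *Polk* (-0.29) were lower, and the call of *Xpc* was lost in 8 of the 13 alternatives. In the mixed group of 18 metabolic and other targets, 7 were lower and 2 higher, against 12.3% and 10.9% of all genes. *Dglucy*, a mitochondrial D-glutamate cyclase, dropped from 14.6 and 13 to 3.57 and 3.89 CPM (log2 fold change -1.88, SE 0.103, adjusted p = 3.53e-11, edgeR's quasi-likelihood test). *Ephx1*, the microsomal epoxide hydrolase, went from 107 and 105 to 41.2 and 41.7 CPM (-1.36, adjusted p = 1.25e-16) and *Ak1*, adenylate kinase, from 88.8 and 84.3 to 56.1 and 58.9 CPM (-0.59, adjusted p = 2.03e-10). *Sulf2* (-0.37), *Dcxr* (-0.58), *Epha2* (-0.20) and *Sesn2* (-0.19) were lower too, the last 3 of them not with library totals. The members called higher were *Tap1* (1.01), a peptide transporter that is also an interferon target, and *Tigar* (0.27).

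**Figure D1:**
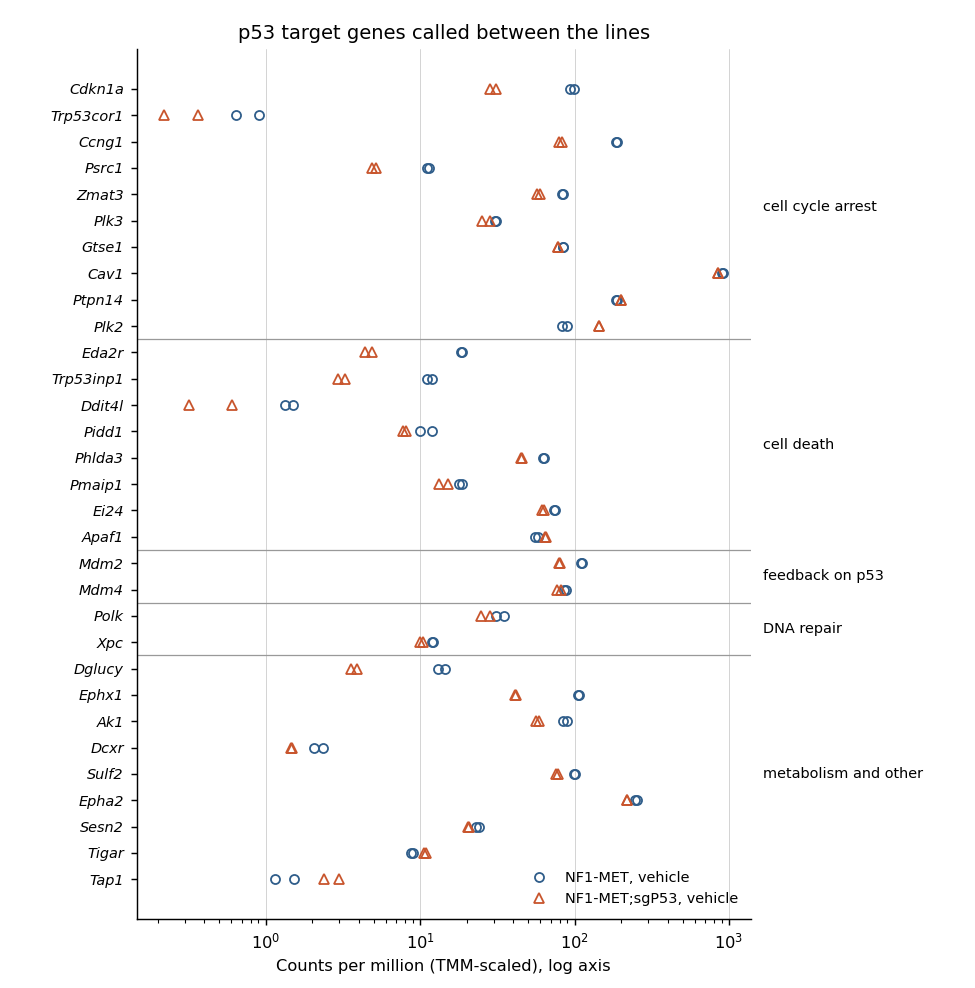
Level of each p53 target gene called between the lines, in CPM on a log axis, with 1 point per vehicle library (circles NF1-MET, triangles NF1-MET;sgP53) and the genes grouped by role. The 26 lower genes have triangles to the left and the 5 higher ones (Plk2, Ptpn14, Apaf1, Tigar, Tap1) to the right. Eda2r, Dglucy, Trp53inp1 and Cdkn1a show the widest gaps past 10 CPM. The lines do not overlap in any of these genes, as in 3352 of all 3355 genes called.

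Cell cycle genes differed by little. Of 46 tested, 11 were called higher and 2 lower, against 10.9% and 12.3% of all genes, and their median was 0.03. With library totals 3 were higher and 0 lower. The largest of these rises were *Cdc20*, the activator of the anaphase-promoting complex, at 0.16 (adjusted p = 0.000332), and *Tk1*, thymidine kinase, at 0.16 (adjusted p = 0.001). The proliferation marker *Mki67* had a log2 fold change of 0.01 (adjusted p = 0.88) and the replication clamp *Pcna* one of 0.01 (adjusted p = 0.831), so no difference was detected in either at this depth. Among 14 CDK inhibitors, D cyclins, their kinases and Rb genes, 5 were higher and 2 lower. *Ccnd2* rose from 101 and 96.5 to 159.8 and 169 CPM (log2 fold change 0.74, SE 0.0347, adjusted p = 3.13e-12, edgeR's quasi-likelihood test) and its partner kinase *Cdk6* from 32.3 and 30.1 to 39.0 and 41.3 CPM (0.37, adjusted p = 2e-05), while *Ccnd1* moved from 1528 and 1522 to 1309 and 1299 CPM (-0.23, adjusted p = 1.78e-08), a call lost with library totals. *Cdkn2b* fell from 99.0 and 90.9 to 71.9 and 70.9 CPM (-0.41, adjusted p = 6.1e-08). Its neighbour *Cdkn2a*, the gene of p16 and ARF, which the study describes as deleted in the NF1-MET line, had 417 and 431 counts in NF1-MET and 368 and 348 counts in NF1-MET;sgP53, or 12.2 and 11.5 CPM in NF1-MET and 11.2 and 8.57 CPM in NF1-MET;sgP53, and did not pass the test (-0.27, adjusted p = 0.0609). Which part of the locus these reads come from cannot be told from a count per gene. In the BCL2 family, 2 of 10 were higher and 4 lower, and with library totals 2 and 1. *Bid*, which links death receptors to mitochondria, was at 7.54 and 8.68 CPM in NF1-MET and 14.8 and 14.3 CPM in NF1-MET;sgP53 (0.84, adjusted p = 3.01e-07), and *Bcl2l1*, which encodes BCL-XL, at 127 and 129.9 CPM in NF1-MET and 101 and 95.7 CPM in NF1-MET;sgP53 (-0.38, adjusted p = 3.5e-08).

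Among genes past 10 CPM whose lines did not overlap, the 12 largest rises were all outside the p53 target lists. *Kcnab2* (ENSMUSG00000028931, chromosome 4, 152390742 to 152477871), a beta subunit of voltage-gated potassium channels, had 2.05 and 1.74 CPM in NF1-MET and 16.6 and 17.8 CPM in NF1-MET;sgP53 (log2 fold change 3.19, SE 0.111, adjusted p = 2.63e-14, edgeR's quasi-likelihood test). *Osmr* (ENSMUSG00000022146, chromosome 15, 6813577 to 6874969), the receptor chain for oncostatin M, had 4.31 and 4.30 CPM in NF1-MET and 26.0 and 26.7 CPM in NF1-MET;sgP53 (log2 fold change 2.61, SE 0.081, adjusted p = 4.6e-15). *Ptx3*, a secreted pentraxin of innate immunity, had 2.55 and 2.35 CPM in NF1-MET and 10.1 and 10.4 CPM in NF1-MET;sgP53 (2.07, adjusted p = 4.92e-11), and the synaptic pentraxin *Nptx2* 6.77 and 7.11 CPM in NF1-MET and 27.0 and 24.7 CPM in NF1-MET;sgP53 (1.89, adjusted p = 3.88e-13). *Itih2*, a hyaluronan-binding protein of serum, rose from 4.66 and 4.06 to 17.1 and 18.7 CPM (2.04, adjusted p = 2.6e-12). The adhesion molecule *Emb* rose from 4.60 and 3.18 to 13.7 and 13.3 CPM (1.80, adjusted p = 4.51e-10), and its parental replicates were the furthest apart of the 12 as a ratio. *Xdh*, xanthine dehydrogenase, rose from 4.60 and 4.06 to 11.9 and 12.6 CPM (1.51, adjusted p = 5.23e-10). The other 5, *Tagln*, *Myl9*, *Ogn*, *Lgals9* and *Fbln2*, belong to lists described later. Apart from *Tagln* and *Fbln2*, all 12 were under 10 CPM in both NF1-MET libraries.

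The 12 largest falls, picked in the same way, held 4 of the p53 targets (*Eda2r*, *Dglucy*, *Trp53inp1* and *Cdkn1a*). *Akr1c18*, an aldo-keto reductase that inactivates progesterone, fell from 101 and 94.8 to 29.3 and 28.7 CPM (log2 fold change -1.76, SE 0.0413, adjusted p = 7.2e-17, edgeR's quasi-likelihood test). The keratin genes *Krt20* and *Krt12*, which neighbour each other on chromosome 11, had 68.2 and 67.5 CPM in NF1-MET and 21.9 and 18.9 CPM in NF1-MET;sgP53 (-1.74, adjusted p = 4.6e-15) and 12 and 9.56 CPM in NF1-MET and 3.79 and 3.13 CPM in NF1-MET;sgP53 (-1.65, adjusted p = 6.41e-09). For the second, 54.4% of the exon bases are shared with an overlapping gene, so its count is uncertain. *Dmp1*, a matrix protein of bone and dentin, went from 476 and 446 to 159 and 151 CPM (log2 fold change -1.57, SE 0.0332, adjusted p = 2.01e-17) and *Smoc2*, a secreted calcium-binding matrix protein, from 219 and 216 to 81.7 and 83.7 CPM (-1.39, adjusted p = 2.1e-17). *Ceacam1*, an adhesion receptor, stood at 18.7 and 17.2 CPM in NF1-MET and 6.54 and 5.91 CPM in NF1-MET;sgP53 (-1.53, adjusted p = 5.59e-11), the phosphatase gene *Ptpn22* at 10.8 and 9.67 CPM in NF1-MET and 4.06 and 3.79 CPM in NF1-MET;sgP53 (-1.38, adjusted p = 6.69e-09) and the inward rectifier potassium channel gene *Kcnj12* at 19.2 and 18.5 CPM in NF1-MET and 7.36 and 7.19 CPM in NF1-MET;sgP53 (-1.37, adjusted p = 6.4e-11). None of these 24 genes changed sign or lost its call in any of the 13 alternatives, of which 1, the stricter filter, did not test *Krt12*.

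**Figure D2:**
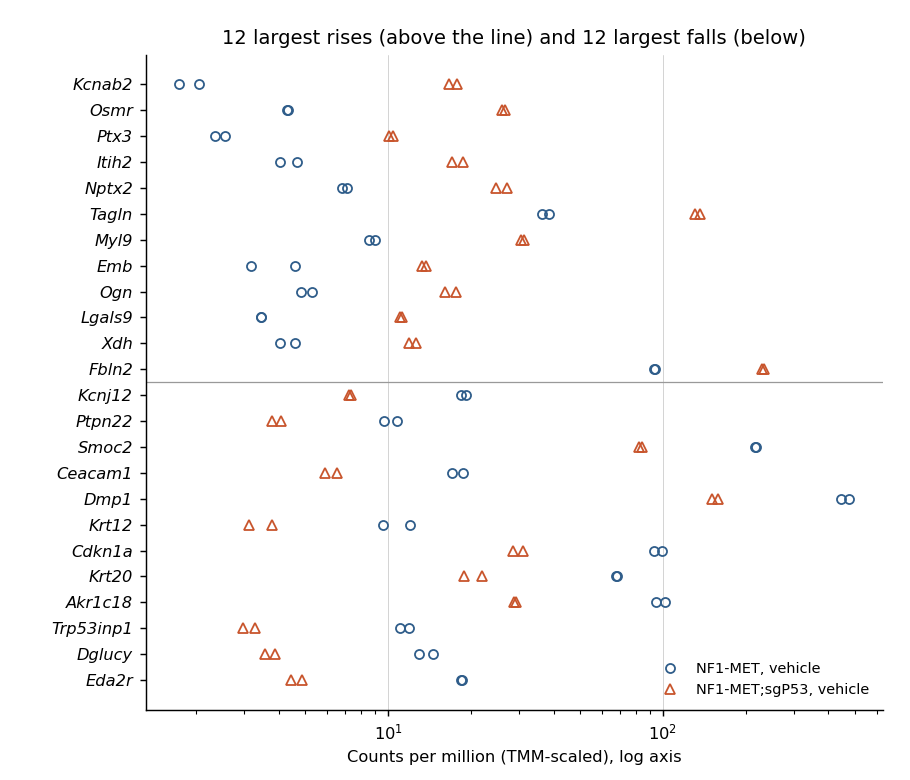
Level of the 12 genes with the largest rises and the 12 with the largest falls, in CPM on a log axis, with 1 point per vehicle library (circles NF1-MET, triangles NF1-MET;sgP53). Genes run from Kcnab2 with a log2 fold change of 3.19 at the top to Eda2r with -1.99 at the bottom. Replicates lie close together, and the lines do not overlap because the 24 genes were picked that way.

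Of 28 tested genes of MET signalling and receptor turnover, 3 were higher and 8 lower, against 10.9% and 12.3% of all genes, with a median of -0.03. With library totals 1 was higher and 5 lower, and the median turned to 0.02. *Met* itself (ENSMUSG00000009376, chromosome 6, 17463800 to 17573980) had 374 and 386 CPM in NF1-MET and 361 and 360.1 CPM in NF1-MET;sgP53, a log2 fold change of -0.08 (adjusted p = 0.0361). The lines did not overlap, but the difference was small, and the call was lost in 6 of the 13 alternatives. Whether reads of the MET transgene were counted on this gene is not given in the sources used here. *Hgf*, the ligand of MET, fell from 58.3 and 54.4 to 34.5 and 35.2 CPM (log2 fold change -0.69, SE 0.0452, adjusted p = 4.48e-10, edgeR's quasi-likelihood test). *Cblb*, a ubiquitin ligase that marks activated receptors for degradation, went from 47.3 and 46.7 to 34.4 and 33.2 CPM (log2 fold change -0.48, SE 0.0451, adjusted p = 9.65e-08), and *Sh3kbp1*, whose product CIN85 joins CBL proteins to endocytosis, from 299 and 291 to 226 and 234 CPM (log2 fold change -0.36, SE 0.0278, adjusted p = 6.31e-09). *Plxnb1*, a semaphorin receptor that can associate with MET, had -0.51 (adjusted p = 0.000112). *Prkce*, the kinase PKC epsilon, did not pass the test, at 11.6 and 13.2 CPM in NF1-MET and 14.0 and 14.0 CPM in NF1-MET;sgP53 (log2 fold change 0.17, adjusted p = 0.14). In the capmatinib libraries, where the study describes it as raised, it was called higher in NF1-MET;sgP53 by the same test (0.22, adjusted p = 0.0472). The change between treatments did not pass (interaction adjusted p = 0.915).

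Other receptor tyrosine kinases went both ways, with 5 of 26 higher and 8 lower (19.2% and 30.8%), against 10.9% and 12.3% of all genes. With library totals 4 were higher and 2 lower, and the median turned from -0.03 to 0.03. *Fgfr2* rose from 25.9 and 28.0 to 50.4 and 52.3 CPM (log2 fold change 0.93, SE 0.0496, adjusted p = 2.21e-11, edgeR's quasi-likelihood test) and the ephrin receptor gene *Ephb2* from 13.5 and 13.8 to 25.7 and 25.5 CPM (0.90, adjusted p = 1.32e-09). *Flt1*, a VEGF receptor, fell from 86.7 and 82.2 to 49.9 and 48.0 CPM (-0.79, adjusted p = 3.53e-12), and the insulin receptor gene *Insr* from 89.3 and 88.5 to 65.4 and 64.8 CPM (-0.45, adjusted p = 1.18e-09). *Egfr* had 31.6 and 29.0 CPM in NF1-MET and 23.9 and 25.9 CPM in NF1-MET;sgP53 (-0.28, adjusted p = 0.00162), a call lost with library totals. Of 30 ligand genes, 7 were higher and 9 lower (23.3% and 30.0%, where all genes gave 10.9% and 12.3%), with a median of -0.13. With library totals 6 were higher and 7 lower. Among the falls were 3 ligands of the EGF receptor, *Areg* from 29.6 and 28.3 to 12.6 and 10.9 CPM (log2 fold change -1.31, SE 0.0719, adjusted p = 3.56e-11), *Btc* from 80.9 and 78.2 to 54.2 and 51.5 CPM (-0.59, adjusted p = 2.14e-10) and *Hbegf* from 175 and 172 to 128 and 128 CPM (-0.44, adjusted p = 4.92e-10). *Csf1*, the macrophage growth factor, was higher, at 319 and 320.1 CPM in NF1-MET and 545 and 540.5 CPM in NF1-MET;sgP53 (0.76, adjusted p = 5.31e-15).

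ERK feedback and early-response genes, which follow the activity of the MAP kinase ERK, were lower in 17 of 36 and higher in 4, against 12.3% and 10.9% of all genes, with a median of -0.09. With library totals 10 were lower and 2 higher. *Dusp4*, an ERK phosphatase, fell from 86.9 and 86.8 to 57.2 and 58.8 CPM (log2 fold change -0.58, SE 0.0329, adjusted p = 5.29e-11, edgeR's quasi-likelihood test), *Fosb* from 31.9 and 33.7 to 22.2 and 23.2 CPM (-0.53, adjusted p = 4.41e-07), *Spred1*, which recruits neurofibromin to RAS, from 389 and 392 to 298 and 299.9 CPM (-0.39, adjusted p = 3.62e-10) and *Spred3* from 32.9 and 31.2 to 21.3 and 26.0 CPM (-0.43, adjusted p = 0.000108). *Ier3* fell from 71.7 and 65.4 to 52.6 and 52.2 CPM (-0.39, adjusted p = 6.51e-07). The phosphatase gene *Dusp6*, often read as a gauge of ERK output, did not pass the test (-0.06, adjusted p = 0.127). *Nf1* did not either, at 42.5 and 38.8 CPM in NF1-MET and 41.0 and 38.9 CPM in NF1-MET;sgP53 (-0.03, adjusted p = 0.773), and these counts do not tell its alleles apart. Of 28 PI3K, AKT and mTOR genes, 5 were higher and 4 lower (17.9% and 14.3%, where all genes gave 10.9% and 12.3%), and with library totals 4 and 0. *Irs1* rose (0.28, adjusted p = 4.21e-06) and *Phlpp1* rose (0.27, adjusted p = 0.000242), while *Ddit4* (-0.32, adjusted p = 0.0101) and *Pik3r1* (-0.22, adjusted p = 4.42e-05) fell, the last 2 not with library totals.

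Smooth muscle contractile genes were higher in NF1-MET;sgP53. Of 32 tested, 21 rose and 6 fell, against 10.9% and 12.3% of all genes, and the median was 0.13. With library totals 14 rose and 2 fell. *Tagln* (ENSMUSG00000032085, chromosome 9, 45929619 to 45936058), an actin-binding protein of smooth muscle, stood at 36.4 and 38.6 CPM in NF1-MET and 131 and 137 CPM in NF1-MET;sgP53 (log2 fold change 1.83, SE 0.0373, adjusted p = 1.91e-17, edgeR's quasi-likelihood test), and 67.9% of its exon bases are shared with *Pcsk7* and another gene. *Myl9*, the regulatory myosin light chain, stood at 8.50 and 8.98 CPM in NF1-MET and 31.1 and 30.5 CPM in NF1-MET;sgP53 (log2 fold change 1.82, SE 0.0678, adjusted p = 7.77e-14). *Acta2*, smooth muscle actin, whose reads may be shared with other actin genes, stood at 435 and 443 CPM in NF1-MET and 936 and 936 CPM in NF1-MET;sgP53 (log2 fold change 1.09, SE 0.0225, adjusted p = 1.91e-17). *Cnn1*, calponin, which was under 10 CPM and is named after its values were seen, had 1.70 and 2.14 CPM in NF1-MET and 7.73 and 7.04 CPM in NF1-MET;sgP53 (1.93, adjusted p = 2.68e-09). Most of the others rose by little, such as *Vcl*, which encodes vinculin (0.18, adjusted p = 8.19e-06), *Tpm1* (0.12, adjusted p = 2.99e-05) and *Srf*, the transcription factor of this programme (0.23, adjusted p = 1.97e-05). *Myh11*, the myosin heavy chain that marks mature smooth muscle, had 1 to 4 counts a library. *Itga8* (-0.80, adjusted p = 7.01e-08) was the largest fall of the list. In bulk RNA, more cells that express such genes and more transcript per cell cannot be told apart.

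CArG boxes, the elements that SRF binds, are shown in capitals for 3 contractile genes that rose, in the same RefSeq windows. A further match at *Srf* is left in lower case.
Myl9, chr2:156775278-156775337, plus strand: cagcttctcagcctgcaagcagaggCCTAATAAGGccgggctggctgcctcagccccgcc
Vcl, chr14:20929148-20929205, plus strand: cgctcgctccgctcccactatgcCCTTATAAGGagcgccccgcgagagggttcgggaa
Srf, chr17:46556210-46556269, minus strand: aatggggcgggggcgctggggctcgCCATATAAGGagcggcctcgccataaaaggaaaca
The box (by name, both strands) was present for 6 of the 19 contractile genes called higher that had a window, 31.6%, and for 0 of the 4 called lower. It was present in 1.63% of all windows and for 1.64% of the tested genes with a window. The list was written by hand, so a share above that of all windows comes in part from how it was made. *Acta1*, which was not called, held the box too. *Acta2* had a window without the box, which says only that the letters are not in these 300 bases.

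Matrix genes other than collagens rose more often than they fell. Of 53 such proteins and enzymes, 30 rose and 12 fell, against 10.9% and 12.3% of all genes (median 0.20), and with library totals 25 and 8. *Ogn*, the small proteoglycan osteoglycin, had 5.28 and 4.84 CPM in NF1-MET and 16.2 and 17.6 CPM in NF1-MET;sgP53 (log2 fold change 1.74, SE 0.0909, adjusted p = 1.55e-11, edgeR's quasi-likelihood test). *Fbln2*, fibulin 2, had 93.6 and 93.0 CPM in NF1-MET and 234 and 229.7 CPM in NF1-MET;sgP53 (log2 fold change 1.31, SE 0.0289, adjusted p = 2.65e-17), *Postn*, periostin, 8.06 and 7.61 CPM in NF1-MET and 14.9 and 13.8 CPM in NF1-MET;sgP53 (0.87, adjusted p = 1.47e-07) and the collagen crosslinking enzyme *Loxl4* 8.83 and 8.07 CPM in NF1-MET and 14.2 and 15.5 CPM in NF1-MET;sgP53 (0.82, adjusted p = 3.12e-07). Of 28 collagen chains, 9 rose and 11 fell, and with library totals 8 and 7. The fibril-forming chains *Col11a1* (0.85, adjusted p = 3.97e-10), *Col1a1* (0.40, adjusted p = 1.99e-12) and *Col3a1* (0.25, adjusted p = 1.32e-08) were among the rises. *Col18a1* was the largest fall, from 476 and 473 to 259 and 261 CPM (log2 fold change -0.87, SE 0.0248, adjusted p = 1.49e-15), and the basement membrane chains *Col4a1* (-0.32, adjusted p = 3.41e-09) and *Col4a2* (-0.38, adjusted p = 4.61e-10) also fell. Names outside the rule, *Col1a1*, *Col3a1*, *Col4a1* and *Col4a2*, were chosen after their values were seen.

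Of 20 integrins, 9 fell and 2 rose, against 12.3% and 10.9% of all genes, and with library totals 6 and 2. The falls were led by *Itga8*, *Itga4* (-0.80, adjusted p = 2.27e-07), *Itgb7* (-0.67, adjusted p = 2.21e-05) and the laminin receptor subunit *Itga6*, which fell from 434 and 429 to 324 and 312 CPM (-0.44, adjusted p = 1.06e-10). Proteases and their inhibitors rose in 12 of 33 and fell in 7, with library totals in 11 and 3, with *Adamts5* (0.81, adjusted p = 4.06e-07) and *Plat*, tissue plasminogen activator (0.45, adjusted p = 3.48e-09), on the higher side. Of 30 target genes of YAP and TEAD, 12 were higher and 8 lower, against 10.9% and 12.3% of all genes, and with library totals 10 and 3. *Ankrd1* rose from 43.0 and 39.9 to 104 and 100.2 CPM (log2 fold change 1.30, SE 0.0382, adjusted p = 1.88e-15, edgeR's quasi-likelihood test) and *Ccn2*, connective tissue growth factor, from 291 and 292 to 498 and 506 CPM (0.79, adjusted p = 4.81e-15), with 23.2% of its exon bases shared with a second gene. *Ccn1* rose from 285 and 279.8 to 386 and 389.6 CPM (0.46, adjusted p = 3.84e-11). *Igfbp3*, which the same list holds and which is known as a p53 target but is not in the p53 lists used here, went from 643 and 624 to 328 and 321 CPM (log2 fold change -0.97, SE 0.0253, adjusted p = 3.36e-16).

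Interferon-stimulated genes, which interferon signalling switches on, were higher in NF1-MET;sgP53. Of 56 tested, 37 were called higher and 0 lower, against 10.9% and 12.3% of all genes, and the median log2 fold change was 0.88 (0.85 with the 5 genes at or under 3 counts in a line, summed over its 2 libraries, set to their bound). A member near 0 in NF1-MET could hardly be called lower. Without these 5, 35 of 51 were higher and 0 lower, and of the 16 that reached 10 CPM in a line 12 were higher and 0 lower. Their levels were low. The sum over the 56 was 361 and 365 CPM in NF1-MET and 483 and 484 CPM in NF1-MET;sgP53, and 40 of the 56 were under 10 CPM in both lines. *Lgals9*, galectin 9, had 3.46 and 3.45 CPM in NF1-MET and 11.2 and 11.1 CPM in NF1-MET;sgP53 (log2 fold change 1.69, SE 0.104, adjusted p = 1.75e-10, edgeR's quasi-likelihood test), *Samd9l* 6.95 and 7.43 CPM in NF1-MET and 14.9 and 15.2 CPM in NF1-MET;sgP53 (log2 fold change 1.06, SE 0.083, adjusted p = 6.41e-09), *Lgals3bp* 9.77 and 9.78 CPM in NF1-MET and 19.2 and 19.4 CPM in NF1-MET;sgP53 (0.98, adjusted p = 2.94e-09) and *Ddx58*, which encodes the RNA sensor RIG-I, 8.06 and 7.61 CPM in NF1-MET and 14.2 and 14.9 CPM in NF1-MET;sgP53 (0.90, adjusted p = 6.65e-08). The antiviral gene *Mx1* had 0 and 0 counts in NF1-MET and 6 and 4 counts in NF1-MET;sgP53, which gives no usable fold, although the gene is among the 37 called. It passed the filter on low counts through libraries other than these 4.

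Members at lower levels, named after their values were seen, were also called higher. The ubiquitin-like modifier *Isg15* had 42 and 47 counts in NF1-MET and 131 and 153 counts in NF1-MET;sgP53 (1.64, adjusted p = 1.11e-06), *Ifit1* 34 and 56 counts in NF1-MET and 140 and 190 counts in NF1-MET;sgP53 (1.83, adjusted p = 3.47e-07) and the chemokine gene *Cxcl10* 21 and 18 counts in NF1-MET and 53 and 74 counts in NF1-MET;sgP53 (1.66, adjusted p = 0.000194). Of the transcription factors that act on these genes, *Irf9* was called with a smaller difference, 0.56 (adjusted p = 0.00674), and *Stat2* (0.14, adjusted p = 0.412) and *Irf7* (0.99, adjusted p = 0.0885) did not pass. In the capmatinib libraries 48 of the 56 were higher and 0 lower, with a median of 0.91, where 5.94% of all genes were called higher.

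The interferon-stimulated response element is shown in capitals for 3 of these genes, as GAAANNGAAA or its reverse complement, in the same RefSeq windows.
Isg15, chr4:156200856-156200915, minus strand: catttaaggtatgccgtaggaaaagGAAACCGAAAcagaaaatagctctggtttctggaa
Ifit1, chr19:34640760-34640819, plus strand: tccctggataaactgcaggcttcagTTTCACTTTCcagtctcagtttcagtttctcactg
Gbp2, chr3:142620579-142620638, plus strand: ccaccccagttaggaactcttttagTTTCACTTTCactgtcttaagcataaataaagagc
Of the 28 interferon-stimulated genes called higher that had a window, 14 held the element on either strand, against 3.44% of all windows and 3.66% of the tested genes with a window. The list was written by hand from genes known to answer interferon, so a share above that of all windows comes in part from how it was made. Genes not called held the element too, such as *Ifit3b* and *Stat2*. Further matches in these sequences, overlapping the marked one at *Isg15*, are left in lower case.

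**Figure D3:**
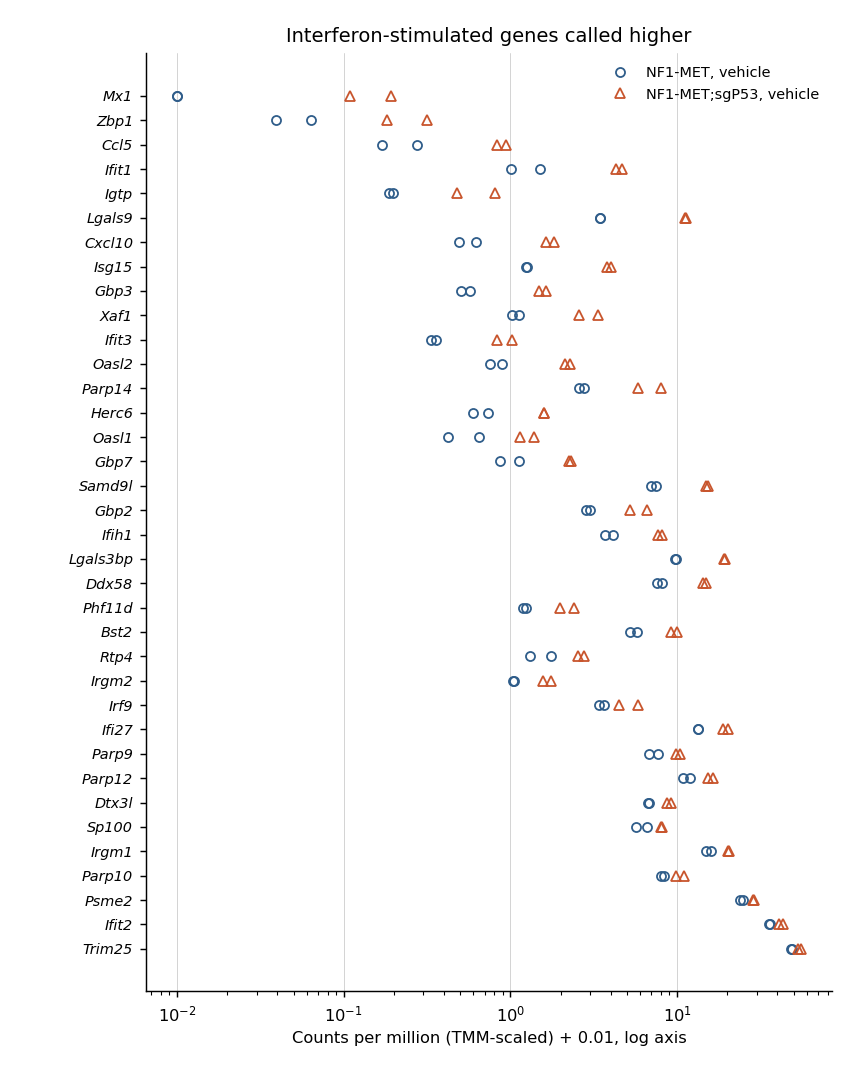
Level of interferon-stimulated genes called higher (36 of the 37), in CPM plus 0.01 on a log axis, with 1 point per vehicle library (circles NF1-MET, triangles NF1-MET;sgP53). Triangles lie to the right of circles for every gene shown, and such a lack of overlap was shared by 3352 of all 3355 genes called. Genes are ordered by fitted fold down to Trim25 (log2 fold change 0.15) at the bottom. Mx1, drawn first, has no count in either NF1-MET library and so no usable fold.

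Genes of MHC class I presentation rose in 11 of 19 and fell in 2, against 10.9% and 12.3% of all genes (median 0.36), and with library totals 11 and 0. Their summed level was lower in NF1-MET;sgP53, at 4035 and 4045 CPM in NF1-MET and 3867 and 3911 CPM in NF1-MET;sgP53. *Tap1* had 1.14 and 1.52 CPM in NF1-MET and 2.38 and 2.98 CPM in NF1-MET;sgP53 and *Tap2*, its partner, 6.89 and 7.85 CPM in NF1-MET and 10.7 and 11.1 CPM in NF1-MET;sgP53 (0.56, adjusted p = 0.000111). The aminopeptidase gene *Erap1* had 26.4 and 27.8 CPM in NF1-MET and 34.8 and 36.0 CPM in NF1-MET;sgP53 (0.38, adjusted p = 1.28e-05) and the class I gene *H2-K1* 48.9 and 49.5 CPM in NF1-MET and 59.9 and 61.8 CPM in NF1-MET;sgP53 (0.31, adjusted p = 4.1e-06), although class I genes resemble each other and may share reads. *B2m*, the invariant chain, did not pass the test (-0.05, adjusted p = 0.19). Of 24 chemokines and cytokines, 7 rose and 7 fell. *Cxcl12* rose from 125 and 121 to 225 and 228 CPM (log2 fold change 0.88, SE 0.0291, adjusted p = 1.08e-14, edgeR's quasi-likelihood test), while *Il11* (-0.86, adjusted p = 8.73e-07) and *Tnfrsf11b*, the decoy receptor osteoprotegerin, fell, the second from 117 and 116 to 69.7 and 69.2 CPM (-0.75, adjusted p = 5.11e-13).

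Of 29 Schwann cell and neural crest genes, 11 were lower and 6 higher, against 12.3% and 10.9% of all genes (median -0.16), and with library totals 6 and 4. *Sox2*, a factor of immature Schwann cells, fell from 163 and 161 to 106 and 104 CPM (log2 fold change -0.63, SE 0.0301, adjusted p = 3.46e-12, edgeR's quasi-likelihood test), *Cdh6* from 65.6 and 62.2 to 28.3 and 31.8 CPM (-1.08, adjusted p = 2.53e-12) and *Cdh2*, N-cadherin, from 303 and 304 to 228 and 228 CPM (-0.41, adjusted p = 2.04e-10). Of 24 kidney development genes, 8 fell and 3 rose (median -0.29). *Robo2*, a receptor of axon and ureteric guidance, dropped from 28.2 and 28.7 to 11.3 and 10.8 CPM (log2 fold change -1.37, SE 0.0653, adjusted p = 3.84e-12), the GDNF co-receptor gene *Gfra1* from 55.1 and 56.0 to 28.5 and 28.5 CPM (-0.96, adjusted p = 1.99e-12) and *Osr2* from 16.6 and 15.1 to 7.76 and 8.30 CPM (-0.98, adjusted p = 2.55e-08). *Fgfr2*, in the same list, rose. Of 30 ossification genes, 10 fell, *Dmp1* and *Bmp2* among them, and 3 rose, *Ogn* among them. With library totals 7 fell and 3 rose.

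Of 49 genes of TGF-beta, activin and BMP signalling, 17 fell and 5 rose, against 12.3% and 10.9% of all genes, with a median of -0.04. With library totals 11 fell and 4 rose, and the median turned to 0.01. *Bmp2*, a BMP ligand, went from 147 and 144 to 66.7 and 63.6 CPM (log2 fold change -1.16, SE 0.0334, adjusted p = 1.53e-15, edgeR's quasi-likelihood test), *Id1*, a BMP response gene, from 35.7 and 33.9 to 20.6 and 22.5 CPM (-0.69, adjusted p = 1.95e-08) and the activin antagonist *Fst* from 139.5 and 135 to 82.2 and 78.6 CPM (-0.77, adjusted p = 1.01e-12). A related antagonist, *Fstl3*, rose (0.72, adjusted p = 1.34e-07), with 47.3% of its exon bases shared with *Prss57*. Of 39 Wnt genes, 6 rose and 7 fell (15.4% and 17.9%), near the shares of all genes, with *Dkk3* higher (0.78, adjusted p = 3.53e-14) and *Dkk2* lower, from 330.5 and 326 to 178 and 183 CPM (-0.86, adjusted p = 4.81e-15). Of 13 Notch genes, 3 rose and 5 fell, against 10.9% and 12.3% of all genes, the ligand gene *Jag1* with -0.29 (adjusted p = 4.66e-05). Of 44 axon guidance genes, 8 rose and 15 fell, against 10.9% and 12.3% of all genes, but 8 rose and 6 fell with library totals, and the median turned from -0.04 to 0.01. The falls included *Plxna4* (-0.69, adjusted p = 1.95e-11) and *Sema5a* (-0.62, adjusted p = 3.56e-11), and the netrin receptor gene *Unc5c* rose (0.73, adjusted p = 7.05e-07).

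Cholesterol and fatty acid synthesis genes had 5 of 33 higher and 9 lower, against 10.9% and 12.3% of all genes, and with library totals 1 each way. The cholesterol exporter gene *Abca1* fell from 85.7 and 85.1 to 52.7 and 51.3 CPM (log2 fold change -0.72, SE 0.034, adjusted p = 3.46e-12, edgeR's quasi-likelihood test). Of 29 glycolysis and lactate transport genes, 6 were higher and 3 lower, and with library totals 4 and 1, *Pfkp* with 0.34 (adjusted p = 7.99e-06) and *Eno2* with -0.52 (adjusted p = 0.000107). Of 37 genes that ATF4 controls in the amino acid response, 12 were higher and 3 lower, against 10.9% and 12.3% of all genes, and with library totals 8 and 2, *Trib3* with 0.46 (adjusted p = 0.000553) and the serine synthesis gene *Psph* with 0.37 (adjusted p = 3.48e-05). Among 14 MPNST tumour suppressors and PRC2 subunits, 0 were higher and 4 lower, where 12.3% of all genes were lower, and with library totals 0 and 2. These were *Cdkn2b*, *Spred1*, *Atrx* (-0.18, adjusted p = 9.7e-05) and *Rasa1* (-0.09, adjusted p = 0.013), the last 2 not with library totals. The PRC2 genes *Eed* (0.10, adjusted p = 0.1) and *Suz12* (0.06, adjusted p = 0.204) did not pass the test.

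**Figure D4:**
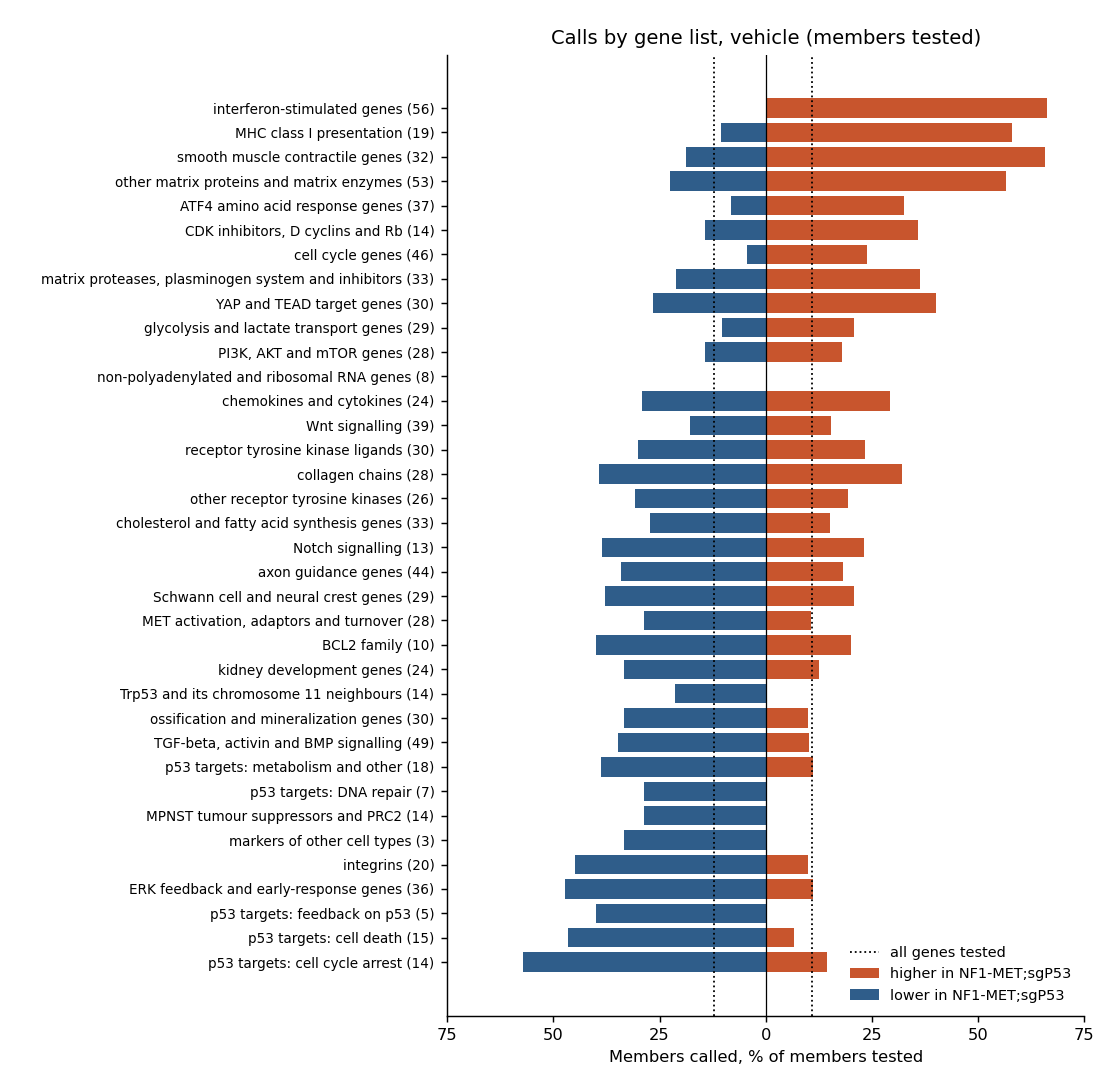
Share of the tested members of each gene list that were called higher (right, orange) or lower (left, blue) in NF1-MET;sgP53, in percent, with the number of members tested in brackets and the shares of all genes as dotted lines (10.9% higher, 12.3% lower). Interferon-stimulated, MHC class I, contractile and matrix genes extend furthest to the right, and p53 targets of cell cycle arrest, ERK feedback genes, p53 targets of cell death and integrins furthest to the left.

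Differences were not gathered on 1 chromosome. Over 20 chromosomes the median log2 fold change lay between -0.04 (chromosome 15, where 19.9% of genes were lower) and 0.03 (chromosome 16, where 14.9% were higher). Chromosome 15 also had the lowest median in the capmatinib libraries (-0.04). Over 279 windows of 50 neighbouring tested genes the median in vehicle lay between -0.09 and 0.11. The lowest of these windows was on chromosome 15, with 16 of its 50 genes lower and 1 higher. The mitochondrial genome stood apart, with 8 of 12 genes lower and a median of -0.26. Its transcripts summed to 18328 and 18162 CPM in NF1-MET and 14052 and 16719 CPM in NF1-MET;sgP53, so the replicates of the second line differed by more than its second replicate differed from NF1-MET. With library totals 4 of the 12 were lower. The part of RNA quality in this was not tested. Of the 8 non-polyadenylated and ribosomal RNA genes tested, 0 were called (4 of 8 lower with library totals), *Rn7sk* having 24.5 and 18.9 CPM in NF1-MET and 23.1 and 12.4 CPM in NF1-MET;sgP53 (adjusted p = 0.193).

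The same genes were then read in capmatinib. The difference between the lines was tested for a change with treatment as an interaction over all 8 libraries, which was called for 9.71% of genes. Of the 12 largest rises in vehicle, all 12 were also called higher in capmatinib, all 12 were smaller there, and for 9 the interaction was called. They were picked for a large difference in vehicle, and the interaction uses the same vehicle libraries, so smaller values in capmatinib follow in part from the choice and the counts are a description. With capmatinib, *Osmr* stood at 74.6 and 72.6 CPM in the parental line against 121 and 120.4 CPM in NF1-MET;sgP53, a log2 fold change of 0.71 against 2.61 in vehicle (interaction adjusted p = 1.29e-15, edgeR's quasi-likelihood test). *Ptx3* had 0.29 against 2.07 (interaction adjusted p = 3.67e-13) and *Ogn* 0.10 against 1.74 (interaction adjusted p = 3.68e-15). For the contractile genes *Tagln* and *Myl9* the lines lay close together in capmatinib, with 0.28 and 0.30. *Kcnab2* kept most of its difference, 2.70 against 3.19 (interaction adjusted p = 0.0901).

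Of the 12 largest falls, 7 were called lower in capmatinib, 9 were smaller there, and for 6 the interaction was called, with the same limit from how they were picked. p53 targets did not share 1 pattern. *Eda2r* had -2.01 against -1.99 (interaction adjusted p = 0.92) and *Cdkn1a* -1.95 against -1.69 (interaction adjusted p = 0.0148), its fall being the larger in capmatinib. *Trp53inp1* had only -0.42 against -1.87 (interaction adjusted p = 5.29e-09), and *Mdm2* -0.16 against -0.48 (interaction adjusted p = 4.45e-05). *Zmat3* had -0.53 against -0.52 (interaction adjusted p = 0.789), and *Trp53* itself -0.89 against -0.94 (interaction adjusted p = 0.765). With capmatinib, *Dmp1* stood at 2.87 and 3.07 CPM in the parental line against 2.44 and 2.14 CPM in NF1-MET;sgP53, far below its vehicle level in both lines, and its line difference of -0.38 did not pass the test there.

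The lists were also counted in capmatinib, where 5.94% of all genes were called higher and 6.34% lower. Contractile genes had 10 higher and 6 lower (median 0.02) against 21 and 6 in vehicle. YAP and TEAD targets had 1 higher and 9 lower (median -0.05) against 12 and 8, so that the balance turned. *Ccn2* (-0.16, adjusted p = 7.05e-07) and *Ccn1* (-0.11, adjusted p = 0.000863) were lower in NF1-MET;sgP53 there, and *Ankrd1* was still higher (0.26, adjusted p = 4.92e-06, all from edgeR's quasi-likelihood test). Matrix genes other than collagens had 22 higher and 12 lower (median 0.05) against 30 and 12, ERK feedback genes 2 higher and 16 lower (median -0.12) against 4 and 17, and MHC class I genes 11 higher and 0 lower (median 0.22) against 11 and 2. Glycolysis genes had 18 higher and 2 lower (median 0.15) against 6 and 3. *Met* and *Cdkn2a* changed sign, *Met* to 0.10 (adjusted p = 0.0222) and *Cdkn2a* to 0.34 (adjusted p = 0.0221), both called higher in NF1-MET;sgP53 with capmatinib.

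**Figure D5:**
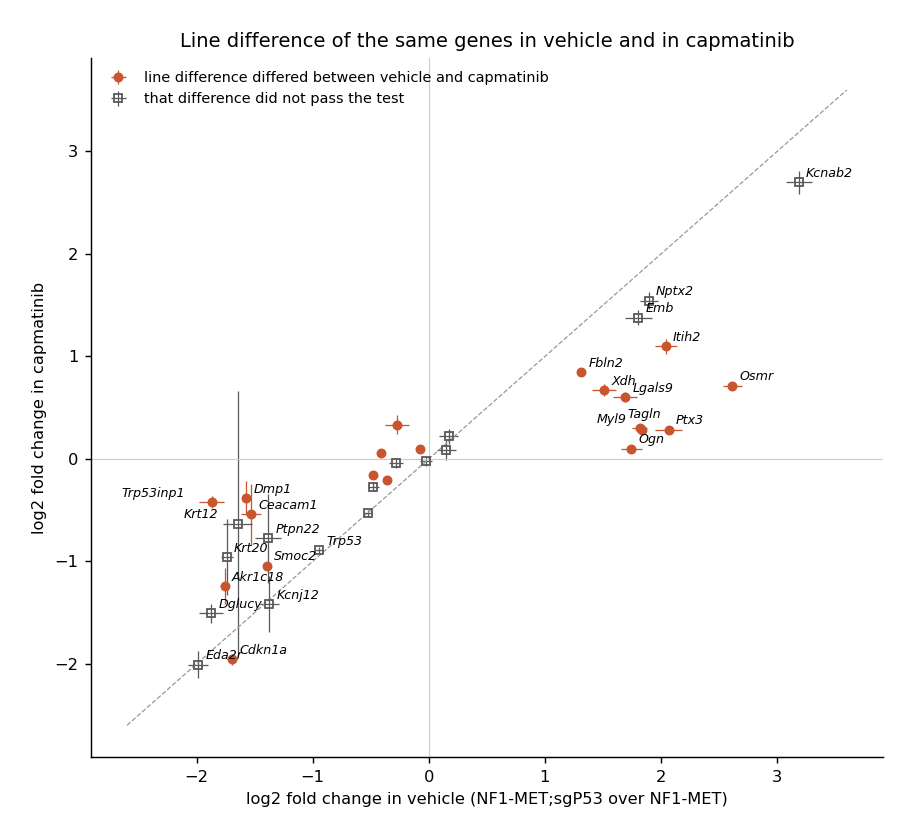
Log2 fold change between the lines in vehicle (horizontal) and in capmatinib (vertical) for 36 genes, the 24 with the largest differences in vehicle and those the study concerns (Trp53, Met, Cdkn2a and others), with SE bars and a dashed line of equality. Filled circles are genes whose line difference differed between the treatments, such as Osmr, Ptx3, Tagln, Myl9 and Ogn far below the line, and open squares such as Kcnab2, Eda2r and Trp53 are genes for which that test was not passed.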

How the data were processed

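Libraries of poly(A) RNA were made with the KAPA mRNA HyperPrep kit. According to the submitters' processing notes, bcl2fastq 1.9.0, Trim Galore 0.4.2, FastQC 0.11.7 and STAR 2.5.2b were used with mm10. The authors deposited raw read counts per gene, neither normalized nor filtered, for 50600 genes. The annotation release and the strand setting of the counting are not given in the sources used here, so exons shared between genes are stated beside the genes named. Positions came from GENCODE M21 (GRCm38), in which 99.6% of the gene identifiers were found, and promoter windows from RefSeq.

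From the deposited counts, genes that reached 10 counts in 2 or more of the 8 libraries were kept, of which 14484 had a count in at least 2 vehicle libraries. The 4 vehicle libraries were scaled with TMM factors and tested with edgeR 4.0.16 (R 4.3.3) by its quasi-likelihood F-test in the legacy form, with Benjamini-Hochberg adjustment and a threshold of 0.05. SE were derived from the fold change and the F statistic. The common biological coefficient of variation was 3.10%. The capmatinib libraries and the interaction were fitted likewise. On simulated counts for this comparison (14477 genes, 200 changed), 90.0% of changed genes were recovered and 4.76% of calls were false. The changes put in were all larger than the median called difference of 0.24 on the log2 scale, and genes at the lowest levels were not changed. The recovery therefore does not describe smaller differences or such genes.

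The text names *Trp53*, *Wrap53*, *Cdkn1a*, *Zmat3*, *Mdm2*, *Met*, *Cblb*, *Sh3kbp1*, *Prkce*, *Egfr*, *Cdkn2a*, *Cdkn2b* and *Nf1*, the 12 largest rises and falls among called genes without overlap whose higher line averaged 10 CPM or more, up to 4 members per list under the same limits, every called p53 target, and the highest members of the lists of other cell types and of non-polyadenylated RNA. Other genes were named after their values were seen. The 36 lists (1063 genes, 890 tested) were written by hand and are described by counts and medians. Members, lists and comparisons were chosen with earlier results of these data known. Alternatives were DESeq2 1.42.0 size factors and its Wald test, library totals, edgeR's bias-adjusted test, other filters, removal of non-polyadenylated RNA, a replicate block, all 8 libraries in 1 model, and each vehicle library left out. Some genes are not reported here.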

Additional observations from a re-analysis of the deposited data

Results flagged for a closer look

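For 36 genes (the 24 largest differences in vehicle and those the study concerns) the difference between the lines was tested for a change with capmatinib, and 20 passed at an adjusted p under 0.05 (edgeR's quasi-likelihood test of the interaction, Benjamini-Hochberg adjustment over all genes, where 9.71% passed). Values are the log2 fold change in capmatinib minus that in vehicle, from 1 model of all 8 libraries.

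For 9 genes higher in NF1-MET;sgP53 in vehicle the difference was smaller with capmatinib. It was -1.92 for *Osmr*, -1.80 for *Ptx3*, -1.67 for *Ogn*, -1.57 for *Tagln* and -1.53 for *Myl9*. It was -1.11 for *Lgals9*, -0.96 for *Itih2*, -0.86 for *Xdh* and -0.49 for *Fbln2*. For 10 genes with a value below 0 in vehicle the change was upward. It was 1.43 for *Trp53inp1*, 1.17 for *Dmp1*, 0.97 for *Ceacam1*, 0.59 for *Cdkn2a* and 0.49 for *Akr1c18*, and 0.45 for *Cdkn2b*, 0.33 for *Smoc2*, 0.30 for *Mdm2*, 0.16 for *Met* and 0.13 for *Sh3kbp1*. *Cdkn2a* (-0.27 in vehicle, 0.34 with capmatinib) and *Met* (-0.08 and 0.10) changed sign and were called higher in NF1-MET;sgP53 with capmatinib (adjusted p = 0.0221 and 0.0222, edgeR's quasi-likelihood test). Among the 20 genes that passed, *Cdkn1a*, at -0.28, was the 1 gene whose fall was larger with capmatinib. Of the 36, 24 were picked for a large difference in vehicle, and the interaction uses the same vehicle libraries, so a smaller difference with capmatinib follows in part from that choice. Single libraries were not tested against the rest of their group.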

How the results depend on the processing

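Of 3355 genes called, DESeq2's Wald test called 1933, all of them among the 3355, with 833 higher and 1100 lower. Library totals in place of TMM factors called 2023, with 1280 higher and 743 lower, so that 63.3% of calls were higher instead of 47.1%. Leaving out 1 library at a time, where the lone library of a line is assumed to vary like the other line, gave 2367 to 2959 calls, 1085 to 1372 higher and 1282 to 1587 lower, and -0.99 to -0.90 for *Trp53*. Samples of the same replicate number did not deviate together (r = 0.04 across genes, which are not independent), and a fit with the replicate number as a block gave 3994 calls, 1905 higher and 2089 lower, and -0.95 for *Trp53*. No direction reversed in any of the 13 alternatives for the 165 genes named by rule. Library totals moved the most of these, with 27 calls lost and 4 gained, and moved the median of 32 of the 36 lists, 9 of which changed sign. The DESeq2 test lost 15. The cause was not tested. With 2 libraries of 1 line per genotype, the p-values hold for these libraries and not for p53 loss in other lines, and genes at the lowest levels rest on few counts.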
